A study of Drosophila melanogaster with 12 samples.

Results

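The comparison described here sets brains of male Drosophila melanogaster that expressed TDP-43 against brains that did not, where both carried a hairpin against mCherry. It takes in 6 of the 12 libraries of the series, chosen by their labels, and all 17562 genes in the table of counts, of which 10738 had enough counts to be tested. The 3 TDP-43 libraries carry the genotype label DaGSTDP(52s)-mCherryRNAi and the 3 control libraries DaGS-mCherryRNAi. DaGS is the usual short name of daughterless-GeneSwitch, a driver that is active in most cell types once the drug RU486 is eaten. What both groups share is therefore the driver, RU486 for 6 days, and the mCherry hairpin, which has no target in a fly without an mCherry transgene. The TDP(52s) transgene is the only named difference. Crosses were kept at 25 °C, the males were collected 1 to 2 days after eclosion, and the labels give biological replicates without naming a batch or a date. Flies with the transgene may differ from controls in genetic background as well, and such a difference cannot be told apart from an effect of TDP-43 with these groups. A ubiquitous driver also means that the protein was not made by neurons alone. The transcript of the transgene was not analysed here.

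TDP-43 is a nuclear protein that binds UG-rich RNA and takes part in splicing, RNA stability and transport. In amyotrophic lateral sclerosis and frontotemporal dementia it leaves the nucleus and collects in cytoplasmic inclusions, and its overexpression in flies shortens life and harms neurons. Flies have their own version, TBPH, and the TDP-43 protein is known to hold down the level of its own messenger. The series was made to study how TDP-43 disturbs sleep and how lowering Atx2, the fly ataxin-2, counters this. The mCherry hairpin is the control condition for that question.

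Levels are CPM, that is, counts relative to the scaled total of the library, with replicates 1, 2 and 3 in that order. A gene was called at an adjusted p under 0.05 by the quasi-likelihood F-test of edgeR, adjusted over all genes tested by the Benjamini-Hochberg method, with no minimum fold. Fold changes are TDP-43 over control on the log2 scale, with their standard error. TBPH (2R, 23859067 to 23862593 in dm6) stood at 71.5, 68.7 and 65.5 CPM in TDP-43 brains, against 127, 147 and 134 CPM in control brains (log2 fold change -0.98 ± 0.06, edgeR adjusted p = 1.49e-07). The eye colour gene w, the usual marker of fly transgenes, stood at 2405, 2174 and 2019 CPM in TDP-43 brains, against 10.9, 9.71 and 10.9 CPM in control brains (log2 fold change 7.71 ± 0.11, edgeR adjusted p = 1.57e-12). Both genes separated the 3 TDP-43 libraries from the 3 controls without overlap, and w lies opposite part of kirre on the other strand.

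The 6 libraries held 32744607 to 45104293 counts with TDP-43 and 29755318 to 39912806 counts in controls. Markers of neurons and glia were abundant in all of them, as the tissue label requires. The 6 neuronal markers summed to 7697, 7483 and 7335 CPM in TDP-43 brains and to 8293, 8268 and 8153 CPM in control brains. The 7 glial markers summed to 3969, 3737 and 3829 CPM in TDP-43 brains and to 4768, 4201 and 4328 CPM in control brains. Both sums were lower in every TDP-43 library than in any control library. Among single markers nSyb (-0.34 ± 0.05, edgeR adjusted p = 0.000228) and fne (-0.34 ± 0.06, edgeR adjusted p = 0.000785) of neurons and nrv2 (-0.51 ± 0.06, edgeR adjusted p = 0.000102) of glia fell. Of the 7 glial markers 4 fell and 1 rose, and 1 fell and 1 rose with replicate 1 as the only TDP-43 library. The rise was that of moody, a receptor gene of the glial blood-brain barrier, with 145, 126 and 168 CPM in TDP-43 brains, against 119.9, 102 and 109 CPM in control brains (log2 fold change 0.41 ± 0.10, edgeR adjusted p = 0.00811). In contrast the active-zone gene brp (0.06 ± 0.05, edgeR adjusted p = 0.298) and the pan-neuronal gene elav (-0.15 ± 0.07, edgeR adjusted p = 0.0922) were not called. Without control replicate 1, elav was called as well (-0.21, edgeR adjusted p = 0.0392). In bulk tissue, fewer cells of a type and less RNA per cell cannot be told apart.

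Transcripts that mark tissues around the brain differed between the libraries, and how much of such tissue a sample held was not tested. The 12 fat body markers summed to 3495, 9291 and 12264 CPM in TDP-43 brains, against 2357, 2102 and 3872 CPM in control brains. The 13 muscle markers summed to 233, 709 and 729 CPM in TDP-43 brains and to 197, 196 and 358 CPM in control brains. The 8 gut enzyme markers summed to 20.5, 1476 and 75.02 CPM in TDP-43 brains and to 18.9, 18 and 31.5 CPM in control brains. TDP-43 replicates 2 and 3 thus stood above the other 4 libraries for fat body and muscle, and replicate 2 stood far above all others for gut. The muscle and gut sums of TDP-43 replicate 1 lay within the range of the controls. The yolk protein genes made up much of the fat body sum with TDP-43, and the other 9 markers of that list summed to 1846, 4401 and 5028 CPM in TDP-43 brains and to 2352, 2097 and 3868 CPM in control brains, with TDP-43 replicate 1 below every control. The 11 photoreceptor markers summed to 1468, 3573 and 1779 CPM in TDP-43 brains and 1856, 1567 and 2539 CPM in control brains, so that the groups overlapped. The 7 hemocyte markers overlapped as well, with 128, 162 and 530.1 CPM in TDP-43 brains and 202, 109.7 and 418 CPM in control brains. The 4 markers of the ring gland and corpora cardiaca, endocrine tissue next to the brain, summed to 256, 154 and 176 CPM in TDP-43 brains and to 153, 98.3 and 41.8 CPM in control brains. Here TDP-43 replicate 1 was the highest of the 6 libraries and the groups did not overlap. Because of the fat body, muscle and gut sums, the count of all genes called and the counts of the gene lists are also given with replicate 1 as the only TDP-43 library, a setting chosen after the data were seen, which assumes that this library varies as the other groups do. Among the 13 muscle markers 4 rose and 1 fell with all libraries, 0 rose and 1 fell with replicate 1 alone, and 11 rose without replicate 1. Without control replicate 3, 9 muscle markers rose, and without any 1 of the other 4 libraries only 1 did.

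**Figure D1:**
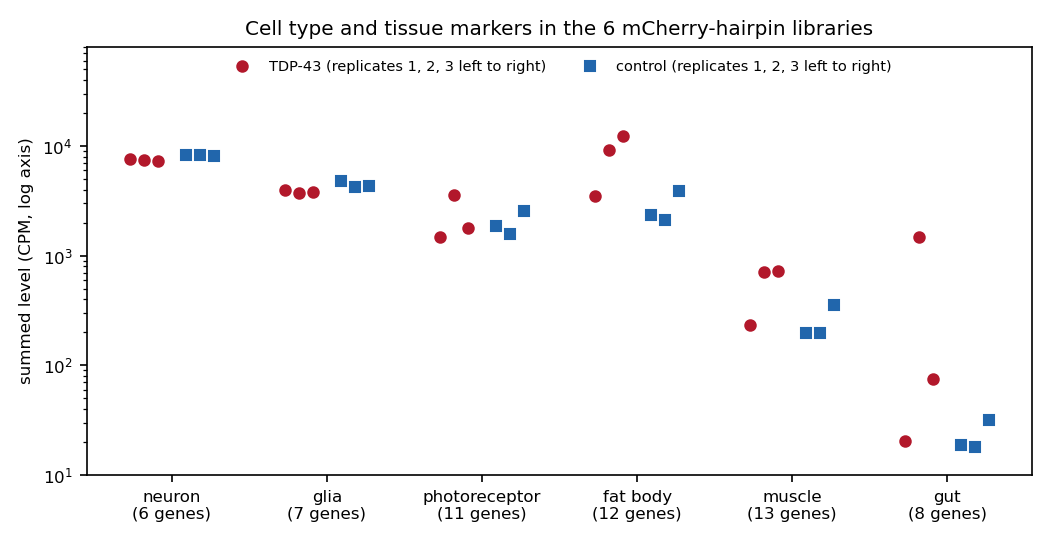
Summed level of each marker list (CPM, log axis) in the 3 TDP-43 libraries (red circles) and the 3 control libraries (blue squares), replicates 1, 2 and 3 from left to right. Fat body sums reach 9291 and 12264 CPM in TDP-43 replicates 2 and 3, and the gut sum reaches 1476 CPM in replicate 2 alone.

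The male label was checked against a male-specific RNA, because yolk protein genes, which females express strongly, are among the largest rises. The male-specific RNA lncRNA:roX1 (X, 3857230 to 3862697), a part of the dosage compensation complex, stood at 4872, 4770.1 and 4437 CPM in TDP-43 brains, against 5131, 4879.9 and 4953 CPM in control brains (log2 fold change -0.09 ± 0.06, edgeR adjusted p = 0.265). It was abundant in all 6 libraries and was not called. The level of Sxl, the master switch of female development, was 396, 386 and 376 CPM in TDP-43 brains, against 399, 390.1 and 385 CPM in control brains (log2 fold change -0.02 ± 0.04, edgeR adjusted p = 0.721). Sxl is transcribed in both sexes and spliced differently, which counts per gene do not show, so its level does not check the label. Genes of oogenesis stayed near 0, as 5 ovary markers together summed to 0.43, 1.18 and 0.256 CPM in TDP-43 brains and 0.0663, 0.234 and 0.127 CPM in control brains. A brain sample holds no ovary in either sex, so these sums do not check the label. Yp1 stood at 844, 2615 and 3735 CPM in TDP-43 brains, against 2.25, 1.64 and 0.994 CPM in control brains, so that TDP-43 replicate 1 was the lowest of its group and still far above the controls (log2 fold change 10.55 ± 1.21, edgeR adjusted p = 0.000268). Of the 11 fat body markers tested, 6 rose and 1 fell with all libraries, and 5 rose and 2 fell with replicate 1 alone. Without TDP-43 replicate 3, 2 fell.

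A large share of the transcriptome differed between the groups, most of it by small amounts. Of 10738 genes tested, 4035 were called (37.6%), 2067 higher (19.2%) and 1968 lower (18.3%). Rises were larger than falls: 1008 genes (9.39%) rose and 130 genes (1.21%) fell by more than 2-fold, and the median change was 0.96 among genes called higher and -0.29 among genes called lower. The 3 TDP-43 libraries did not overlap with the 3 controls in 4987 genes (46.4%), 2650 of them higher (24.7%) and 2337 lower (21.8%). With replicate 1 as the only TDP-43 library 2352 genes were called, 1155 higher and 1197 lower, and 506 rose and 131 fell more than 2-fold. The excess of large rises was thus smaller without replicates 2 and 3, while the number of large falls was about the same.

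Genes called lower and genes called higher differed in level. Among 1572 genes that averaged under 1 CPM over the 6 libraries, 25.4% were called higher and 2.04% lower. Among 110 genes at 1000 CPM or more, 3.64% were called higher and 50% lower. The classes between had 26.6% higher and 4.84% lower at 1 to 10 CPM, 16% and 19.5% at 10 to 100 CPM, and 13.4% and 44.1% at 100 to 1000 CPM. The share called lower was thus larger in each higher class of level, while the share called higher was about equal in the lowest classes and smaller above 10 CPM. Smaller changes can be called where counts are high, so these shares depend on depth as well as on the size of the change. The median change, which does not depend on a call, was 0.70 under 1 CPM and -0.14 at 1000 CPM or more. A gene under 1 CPM can pass the filter on low counts through the group where it is higher. The median of that class therefore depends on the filter.

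Long genes were called lower more often than short ones. Of 4082 genes that span under 2 kb from start to end, 19.6% were called higher and 7.55% lower, with a median change of 0.12. Of 300 genes that span 50 kb or more, 19.3% were called higher and 44.3% lower, with a median change of -0.15. The share called lower was 18.2% at 2 to 5 kb, 28.7% at 5 to 20 kb and 36.3% at 20 to 50 kb, while the share called higher stayed between 17.9% and 20.8%. Within genes of 10 to 1000 CPM the share called lower also ran upward, with 13% under 2 kb, 25.8%, 34.8% and 39.4% in the classes between and 49.2% at 50 kb or more. There the share called higher ran from 12.5% to 20.9%. With replicate 1 as the only TDP-43 library, 3.13% of the shortest and 29.8% of the longest genes were called lower. Genes are not independent replicates, and no test is given for these shares.

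**Figure D2:**
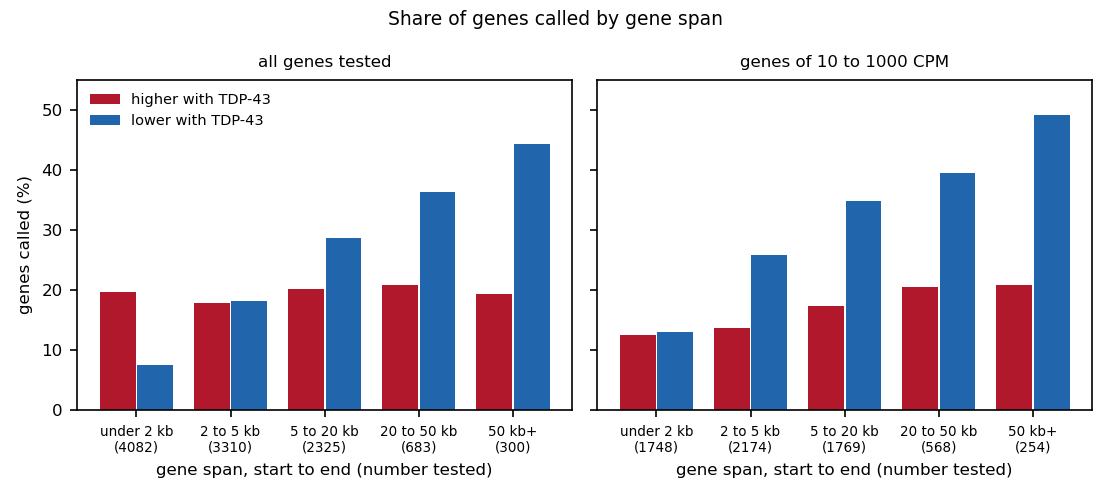
Percentage of tested genes called higher (red) and lower (blue) with TDP-43 in 5 classes of gene span, for all genes tested and for genes that average 10 to 1000 CPM, with the number of genes under each class. The share called lower runs from 7.55% to 44.3% over all genes and from 13% to 49.2% in the middle range of levels.

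Chromosome arms were more alike. The share called higher was 18.5% on 2L to 20.2% on 2R among the 5 large arms, and the share called lower was 16.2% on 2L to 21.4% on X. The small chromosome 4 had 15.4% higher and 26% lower. Genes that fell by more than 2-fold made up 1.78% of 3R and 0.782% to 1.19% of the other large arms. Of 635 non-coding RNA genes, 24.9% were called higher and 5.67% lower, against 18.9% and 19.3% of 9917 protein-coding genes.

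The smallest adjusted p-values, among genes of at least 20 CPM in the higher group, belonged to genes that separated the groups widely. The kinase gene mnb, the fly DYRK1A, whose dose affects brain growth and behaviour, rose by 1.42 ± 0.04 on the log2 scale. Its levels were 226, 229 and 232 CPM in TDP-43 brains, against 86, 85.1 and 86.3 CPM in control brains (edgeR adjusted p = 4.94e-10; X, 17862697 to 17887222). Ns4 (2L, 20752476 to 20754655), which encodes a nucleostemin-family GTPase, stood at 145, 130.3 and 136 CPM in TDP-43 brains, against 24.7, 23.9 and 22.7 CPM in control brains (log2 fold change 2.53 ± 0.07, edgeR adjusted p = 4.94e-10). Both genes overlap others on the opposite strand (CG12985 and CG6769 at mnb, Rhau at Ns4), and the strand setting of the authors' counting is not known from the sources used here. NimA (2L, 13957539 to 13963381), of the Nimrod receptor family known from phagocytosis, rose to 73.8, 54.6 and 57.7 CPM in TDP-43 brains, against 0.663, 0.971 and 0.969 CPM in control brains (log2 fold change 6.15 ± 0.17, edgeR adjusted p = 4.94e-10). The recombination repair gene spn-B (3R, 14328051 to 14329608) rose to 29.8, 25.1 and 25.3 CPM in TDP-43 brains, against 2.06, 2.18 and 1.73 CPM in control brains (log2 fold change 3.75 ± 0.11, edgeR adjusted p = 4.94e-10). TDP-43 replicate 1 had the highest TDP-43 level of Ns4, NimA and spn-B. That library was the poorest of its group in fat body and muscle transcripts and the richest in those of the ring gland and corpora cardiaca. The part of other tissues in these rises was not tested.

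Among the falls with the smallest adjusted p-values were CG6654, Map205, Oatp58Dc and Nepl5. CG6654 (3R, 15211277 to 15213658) stood at 15.3, 13.7 and 14.7 CPM in TDP-43 brains, against 72.4, 72.6 and 71.9 CPM in control brains (log2 fold change -2.31 ± 0.06, edgeR adjusted p = 3.14e-10). Map205 (3R, 32055279 to 32068441), a microtubule-associated protein, stood at 35.1, 39.97 and 40.1 CPM in TDP-43 brains, against 94.9, 103 and 102 CPM in control brains (log2 fold change -1.38 ± 0.06, edgeR adjusted p = 2.5e-08). The organic anion transporter gene Oatp58Dc fell to 54.3, 57.4 and 55.6 CPM in TDP-43 brains, against 130.4, 122 and 120.0 CPM in control brains (log2 fold change -1.15 ± 0.05, edgeR adjusted p = 1.67e-08). The neprilysin-like peptidase gene Nepl5 fell to 58.8, 58.6 and 61.5 CPM in TDP-43 brains, against 227, 219.9 and 179 CPM in control brains (log2 fold change -1.81 ± 0.09, edgeR adjusted p = 6.26e-08). In all 4 even the highest TDP-43 library was more than 2-fold below the lowest control, and Nepl5 and CG6654 overlap another gene, DIP-epsilon and Mau2, on the other strand.

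Ranked by the difference in CPM, the largest fall was that of the non-coding RNA gene lncRNA:CR31451, with 5276, 5089 and 4685 CPM in TDP-43 brains, against 7914, 7523 and 7027 CPM in control brains (log2 fold change -0.58 ± 0.08, edgeR adjusted p = 0.000165). Atpalpha, the catalytic subunit of the sodium pump, had 6529, 6679 and 6351 CPM in TDP-43 brains, against 8179, 7607 and 7512 CPM in control brains (log2 fold change -0.25 ± 0.04, edgeR adjusted p = 0.000873). The fly amyloid precursor gene Appl had 2439, 2572 and 2348 CPM in TDP-43 brains, against 3109.6, 3025 and 2949.8 CPM in control brains (log2 fold change -0.30 ± 0.04, edgeR adjusted p = 0.000231). The adaptor gene 14-3-3zeta had 1823, 1799.9 and 1754 CPM in TDP-43 brains, against 2598, 2495 and 2434 CPM in control brains (log2 fold change -0.49 ± 0.04, edgeR adjusted p = 8.59e-06), and pros, a transcription factor gene of neurons and glia, had 2039, 2379 and 2108 CPM in TDP-43 brains, against 2954, 3062 and 2741 CPM in control brains (log2 fold change -0.42 ± 0.07, edgeR adjusted p = 0.000521). CG10077 fell as well (-0.36 ± 0.05, edgeR adjusted p = 0.000235). None of these falls reached 1.5-fold, and a lack of overlap between the groups was required for a gene to be ranked here. The iron carrier gene Tsf1 had 1037, 1101 and 1329 CPM in TDP-43 brains, against 1807, 1692 and 1989 CPM in control brains (log2 fold change -0.66 ± 0.09, edgeR adjusted p = 0.000113), and Obp44a, an odorant-binding protein gene that glia express, had 1359, 1265 and 1545 CPM in TDP-43 brains, against 2558, 2021 and 2398 CPM in control brains (log2 fold change -0.74 ± 0.16, edgeR adjusted p = 0.00621). The call of Obp44a was lost with replicate 1 as the only TDP-43 library (edgeR adjusted p = 0.0902). On the other side LRP1 (2R, 8174165 to 8226438), a lipoprotein receptor gene, rose to 789, 951 and 1227 CPM in TDP-43 brains, against 176, 196 and 209 CPM in control brains (log2 fold change 2.35 ± 0.14, edgeR adjusted p = 8.7e-07).

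**Figure D3:**
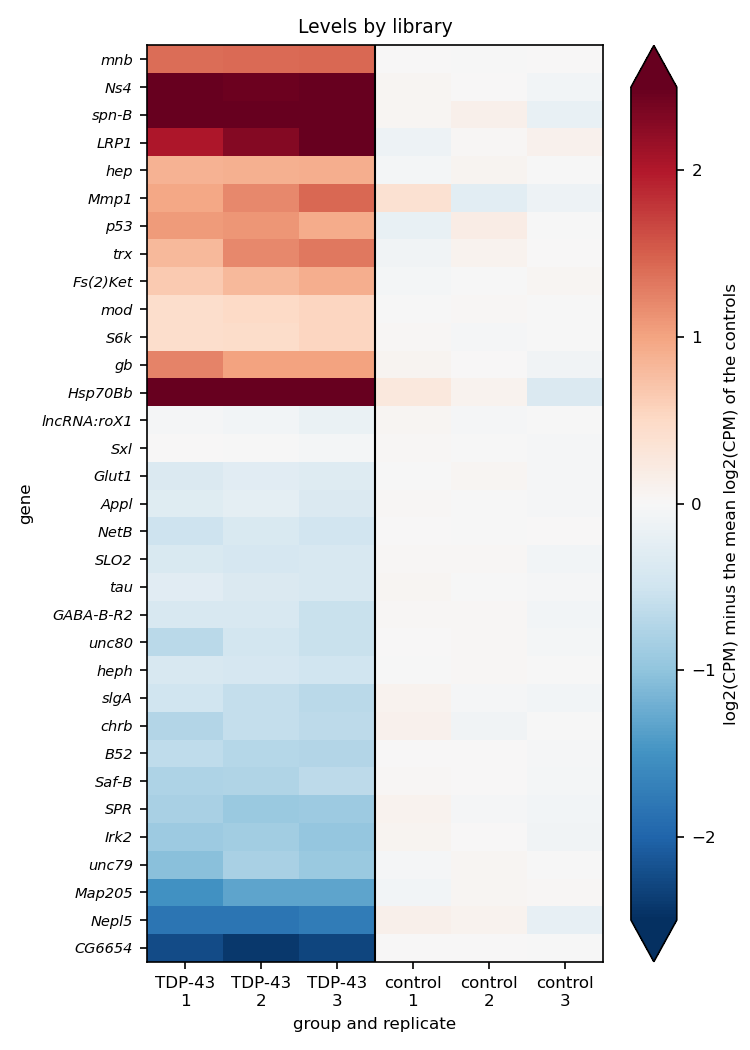
Level of named genes in each of the 3 TDP-43 and 3 control libraries, as log2 CPM minus the mean log2 CPM of the controls (red higher, blue lower, with the darkest colours for values beyond the ends of the scale). The columns within a group are nearly alike for genes such as mnb, hep and CG6654, and roX1 and Sxl stay near 0.

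Gene lists were used to describe the change by function, with the count of members that rose and fell set beside the 19.2% and 18.3% of all genes tested. The lists and their members were chosen with results of these data known, so the counts are a description and carry no test. Lists also differ in the span and level of their members, and over all genes the shares called differed by span and level. Lists close to TDP-43 itself come first. Of 17 genes linked to TDP-43 or TBPH in earlier fly work, such as messengers they bind, 0 rose and 11 fell, with a median change of -0.29. Their median span was 13163 bases, against 2683 over all genes tested, and 28.7% of all genes of 5 to 20 kb were called lower. Besides Map205 these include the deacetylase gene HDAC6 (-0.34 ± 0.04, edgeR adjusted p = 4.39e-05) and tau (-0.35 ± 0.04, edgeR adjusted p = 8.11e-05), whose human counterpart also aggregates in dementia. HDAC6 had 154, 157 and 155 CPM in TDP-43 brains and 195, 190.2 and 204 CPM in control brains. With replicate 1 alone, 0 rose and 8 fell, and 1 rose without TDP-43 replicate 1.

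Of the splicing factors and hnRNPs, relatives and partners of TDP-43, 48 were tested. Of these, 5 rose and 22 fell, with a median change of -0.15, and 3 rose and 16 fell with replicate 1 alone. The rises numbered 2 without TDP-43 replicate 2 and 3 without TDP-43 replicate 1, control replicate 1 or control replicate 3. The share called lower was 44.1% over all genes at 100 to 1000 CPM and 19.5% at 10 to 100 CPM. B52, Saf-B and heph lie in the first of these classes and x16 in the second. The part of level in the count of falls was not tested. B52 (3R, 13661311 to 13666891), an SR protein gene, had 311, 296 and 292 CPM in TDP-43 brains, against 486, 486 and 474 CPM in control brains (log2 fold change -0.69 ± 0.04, edgeR adjusted p = 2.87e-07). Saf-B, a scaffold attachment factor that binds RNA, had 225, 229 and 245 CPM in TDP-43 brains, against 394, 389 and 371 CPM in control brains (log2 fold change -0.72 ± 0.05, edgeR adjusted p = 4.19e-07). The polypyrimidine tract-binding protein gene heph (-0.44 ± 0.05, edgeR adjusted p = 2.09e-05) and the SR protein gene x16 (-0.50 ± 0.06, edgeR adjusted p = 6.16e-05) fell less. B52 and Saf-B were reduced to a like degree in each of the 3 TDP-43 libraries, and the lowest control stayed well above the highest of these.

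Nuclear pore and transport genes matter for where TDP-43 resides. Of 44, 4 rose and 9 fell with a median of -0.04, and 2 rose and 7 fell with replicate 1 alone. The largest call was a rise: Fs(2)Ket (2L, 20734609 to 20750941), the gene of importin-beta, had 321, 357 and 381 CPM in TDP-43 brains, against 198, 203 and 210.2 CPM in control brains (log2 fold change 0.79 ± 0.06, edgeR adjusted p = 2.73e-06). The export receptor gene emb (-0.28 ± 0.05, edgeR adjusted p = 0.000535) and the pore genes Nup214 (-0.40 ± 0.05, edgeR adjusted p = 0.000127) and Elys (-0.34 ± 0.05, edgeR adjusted p = 0.000289) fell by less than 1.5-fold each. The number of rises was 2 without control replicate 2 or without any 1 of the TDP-43 libraries. Of 29 mRNA decay genes 1 rose and 7 fell, with the deadenylase complex genes Not3 (-0.24 ± 0.04, edgeR adjusted p = 0.000419), twin (-0.31 ± 0.05, edgeR adjusted p = 0.000614) and Pop2 (-0.29 ± 0.05, edgeR adjusted p = 0.000983) and the decapping scaffold Ge-1 (-0.30 ± 0.05, edgeR adjusted p = 0.000405) among the falls. Without control replicate 2 the falls numbered 4, and with replicate 1 alone 1 rose and 6 fell.

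Of 18 small RNA genes, 2 rose and 2 fell, and 1 rose and 1 fell with replicate 1 alone. Only 1 rose without TDP-43 replicate 1, control replicate 1 or control replicate 2. The Dicer partner gene loqs had 130.4, 119 and 117 CPM in TDP-43 brains, against 170.4, 170.4 and 164 CPM in control brains (log2 fold change -0.46 ± 0.05, edgeR adjusted p = 3.68e-05). The germline gene piwi, which silences transposons, was scarce, with 2.54, 3.25 and 3.04 CPM in TDP-43 brains, against 1.39, 1.24 and 0.918 CPM in control brains (log2 fold change 1.31 ± 0.21, edgeR adjusted p = 0.000566). Its groups did not overlap, which was required for it to be named, and its levels are those of a rare transcript. The gene piwi also overlaps SCAR on the other strand. Of 38 chromatin regulators 2 rose and 18 fell, with a median of -0.20, and 3 rose and 15 fell with replicate 1 alone. The remodeller gene brm (-0.45 ± 0.05, edgeR adjusted p = 5.26e-05) and Tet (-0.55 ± 0.07, edgeR adjusted p = 6.63e-05), a dioxygenase gene, fell. In contrast trx (3R, 14263358 to 14286903), of the Trithorax group that keeps genes active, had 503, 668 and 723 CPM in TDP-43 brains, against 271, 307 and 289.5 CPM in control brains (log2 fold change 1.13 ± 0.11, edgeR adjusted p = 1.82e-05).

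Among genes of excitability and wiring, falls outnumbered rises. Of 35 potassium, sodium and calcium channel genes 2 rose and 20 fell, with a median of -0.19, and with replicate 1 alone 2 rose and 12 fell. The rises numbered 0 without control replicate 3, and 1 without TDP-43 replicate 2, TDP-43 replicate 3 or control replicate 2. The channel genes are long, with a median span of 17326 bases, and 28.7% of all genes of 5 to 20 kb were called lower. The inward rectifier gene Irk2 (3R, 23513617 to 23519445) had 99.3, 102 and 95.5 CPM in TDP-43 brains, against 195, 187 and 176 CPM in control brains (log2 fold change -0.91 ± 0.05, edgeR adjusted p = 1.76e-07). Both partners of the sodium leak channel fell: unc79 had 528, 624 and 579.8 CPM in TDP-43 brains, against 1077, 1128 and 1084 CPM in control brains (log2 fold change -0.92 ± 0.06, edgeR adjusted p = 3.87e-07) and unc80 had 633, 735 and 689 CPM in TDP-43 brains, against 1019, 1036 and 972 CPM in control brains (log2 fold change -0.56 ± 0.06, edgeR adjusted p = 1.48e-05). The leak channel sets resting excitability and its partners are required for normal circadian locomotion in flies. SLO2, a sodium-gated potassium channel gene, fell less (-0.40 ± 0.04, edgeR adjusted p = 2.42e-05), and it spans many small genes on its own strand. All 4 genes separated the groups, which was required for a gene to be named.

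Of 16 GABA and glutamate receptor genes 2 rose and 8 fell, and with replicate 1 alone 3 rose and 4 fell. The metabotropic GABA receptor subunit genes GABA-B-R2 and GABA-B-R1 both fell, with GABA-B-R2 at 256, 256 and 229 CPM in TDP-43 brains, against 347, 346 and 324 CPM in control brains (log2 fold change -0.46 ± 0.05, edgeR adjusted p = 3.81e-05) and GABA-B-R1 less so (-0.27 ± 0.04, edgeR adjusted p = 0.000305). GluRIB, of the AMPA type, fell (-0.31 ± 0.04, edgeR adjusted p = 0.000183). GluClalpha, the inhibitory glutamate-gated chloride channel, went the other way with 1062, 991 and 989 CPM in TDP-43 brains, against 819, 804 and 775 CPM in control brains (log2 fold change 0.34 ± 0.05, edgeR adjusted p = 0.000276). Of 38 neuropeptide receptor genes 2 rose and 12 fell, with a median of -0.18, and with replicate 1 alone 2 rose and 7 fell. SPR (X, 5446656 to 5494012), the receptor of the sex peptide and of the sleep-related MIP peptides, had 84.7, 77.7 and 79.1 CPM in TDP-43 brains, against 158, 145 and 141 CPM in control brains (log2 fold change -0.88 ± 0.06, edgeR adjusted p = 8.26e-07). Dh44-R1 (-0.70 ± 0.07, edgeR adjusted p = 9.95e-06), which receives a diuretic hormone with a part in rest and activity rhythms, Proc-R (-0.86 ± 0.08, edgeR adjusted p = 1.06e-05) and CNMaR (-0.53 ± 0.07, edgeR adjusted p = 0.000197) fell as well. Both lists hold long genes, with a median span of 12539 bases for the GABA and glutamate receptor genes and 17378 for the neuropeptide receptor genes. The share called lower was 28.7% over all genes of 5 to 20 kb. In either direction, 36.8% of the neuropeptide receptor genes were called, close to the 37.6% of all genes tested.

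Of 17 genes of monoamine and histamine signalling 1 rose and 7 fell, and with replicate 1 alone 1 rose and 4 fell. Tbh, the enzyme gene of the last step of octopamine synthesis, fell (-0.33 ± 0.06, edgeR adjusted p = 0.00126). Tdc1, the tyrosine decarboxylase gene that is known mainly outside neurons, had 4.22, 11.9 and 5.77 CPM in TDP-43 brains, against 0.597, 0.402 and 0.561 CPM in control brains (log2 fold change 3.80 ± 0.45, edgeR adjusted p = 6.63e-05). Its highest library was TDP-43 replicate 2, which also had the highest gut sum, and the part of gut transcripts in this rise was not tested. The transporter gene prt had 21.7, 22.1 and 18 CPM in TDP-43 brains, against 34.2, 33 and 27.2 CPM in control brains (log2 fold change -0.61 ± 0.10, edgeR adjusted p = 0.000426), and AANAT1, which inactivates monoamines, fell (-0.31 ± 0.05, edgeR adjusted p = 0.000908).

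Of 46 genes of axon guidance and adhesion 2 rose and 25 fell. The median change was -0.20, and with replicate 1 alone 0 rose and 20 fell. Only 1 rose without TDP-43 replicate 3 or control replicate 3. These genes are long, with a median span of 37213 bases against 2683 over all genes tested, and long genes were called lower more often in general. The guidance cue gene NetB had 192, 209.7 and 196 CPM in TDP-43 brains, against 275, 272 and 275 CPM in control brains (log2 fold change -0.46 ± 0.04, edgeR adjusted p = 3.83e-06). The synaptic adhesion gene Nlg2 (-0.40 ± 0.04, edgeR adjusted p = 2.27e-05) and the immunoglobulin-type adhesion genes sns (-0.41 ± 0.05, edgeR adjusted p = 9.5e-05) and Dscam4 (-0.26 ± 0.04, edgeR adjusted p = 0.000157) fell by less than 1.5-fold. Of 26 genes of microtubules and axonal transport 0 rose and 13 fell, and with replicate 1 alone 1 rose and 12 fell. Without TDP-43 replicate 1, 1 rose. The tubulin gene alphaTub84B had 733, 731 and 688 CPM in TDP-43 brains, against 983, 906 and 888 CPM in control brains (log2 fold change -0.37 ± 0.05, edgeR adjusted p = 0.000182), although near-identical tubulin genes can share reads. The dynein light chain gene ctp (-0.35 ± 0.04, edgeR adjusted p = 7.61e-05) and the stathmin gene stai (-0.32 ± 0.06, edgeR adjusted p = 0.000788) fell by a like amount, close to tau above.

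Injury and death pathways moved in both directions. Of 22 genes of axon injury and JNK signalling 7 rose and 7 fell, and with replicate 1 alone 5 rose and 5 fell. The JNK kinase gene hep (X, 13079205 to 13090434) had 241, 244 and 248 CPM in TDP-43 brains, against 128, 138 and 131 CPM in control brains (log2 fold change 0.88 ± 0.04, edgeR adjusted p = 4.4e-08), and its 3 TDP-43 libraries lay close together. The matrix metalloprotease gene Mmp1, a target of JNK in injured tissue, had 36.7, 43 and 50.6 CPM in TDP-43 brains, against 24.6, 15.8 and 17.2 CPM in control brains (log2 fold change 1.18 ± 0.17, edgeR adjusted p = 0.000332). The gene axed, required for axon self-destruction, fell instead, with 55.1, 58.1 and 51.3 CPM in TDP-43 brains, against 68.2, 76.2 and 68.6 CPM in control brains (log2 fold change -0.37 ± 0.06, edgeR adjusted p = 0.000387). Of 18 apoptosis genes 5 rose and 3 fell, and 2 rose and 1 fell with replicate 1 alone. The rises numbered 2 without TDP-43 replicate 3 or control replicate 2, and 3 without TDP-43 replicate 2 or control replicate 3. The tumour suppressor gene p53 (3R, 23049657 to 23054082) had 16.9, 17.4 and 15.2 CPM in TDP-43 brains, against 7.06, 9.21 and 8.03 CPM in control brains (log2 fold change 1.02 ± 0.11, edgeR adjusted p = 2.51e-05), and the initiator caspase gene Dronc had 13.1, 13.3 and 13.8 CPM in TDP-43 brains, against 7.99, 8.97 and 7.57 CPM in control brains (log2 fold change 0.71 ± 0.10, edgeR adjusted p = 0.000215). Diap2, an inhibitor of apoptosis, fell (-0.49 ± 0.08, edgeR adjusted p = 0.000637). p53 lies opposite Gr94a and an antisense RNA. Of 10 JAK-STAT and Turandot genes 1 rose and 2 fell, and 0 rose and 1 fell with replicate 1 alone. There 2 rose without TDP-43 replicate 2, and 1 fell without TDP-43 replicate 1, TDP-43 replicate 3 or control replicate 2.

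In lists of growth machinery, more genes rose than fell. Of 17 ribosome biogenesis genes 9 rose and 1 fell, with a median of 0.24. The nucleolar gene mod (3R, 32052060 to 32054974) had 92.5, 96.2 and 97.7 CPM in TDP-43 brains, against 67, 69.3 and 67 CPM in control brains (log2 fold change 0.50 ± 0.04, edgeR adjusted p = 1.44e-06), and RpI1, the large subunit of RNA polymerase I, had 26, 25.4 and 28.7 CPM in TDP-43 brains, against 17.6, 21.5 and 20.1 CPM in control brains (log2 fold change 0.44 ± 0.08, edgeR adjusted p = 0.00122). The rises numbered 6 to 8 when 1 library was left out, and with replicate 1 alone 3 rose and 0 fell. The single fall was lost without TDP-43 replicate 2, TDP-43 replicate 3, control replicate 2 or control replicate 3. Of 35 aminoacyl-tRNA synthetase genes 10 rose and 4 fell, among them SerRS (0.44 ± 0.08, edgeR adjusted p = 0.000959) and LeuRS (0.34 ± 0.06, edgeR adjusted p = 0.000983) up and the mitochondrial MetRS-m (-0.61 ± 0.07, edgeR adjusted p = 4.78e-05) down. Without TDP-43 replicate 2 the rises numbered 5, without replicate 3 they numbered 6, and with replicate 1 alone 3 rose and 1 fell. TDP-43 replicates 2 and 3 are the libraries with the high fat body and muscle sums, and the part of these transcripts in the growth counts was not tested.

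Of 27 genes of the cell cycle and DNA replication 9 rose and 1 fell, with a median of 0.56, and with replicate 1 alone 6 rose and 0 fell. The single fall was lost without control replicate 1. Most neurons of an adult fly no longer divide, and these transcripts were scarce. Rises outnumbered falls among scarce genes in general. Of all genes at 1 to 10 CPM, 26.6% were called higher and 4.84% lower, with a median change of 0.25. Under 1 CPM the shares were 25.4% and 2.04%, with a median change of 0.70. The mitotic kinase gene aurA had 7.14, 6.03 and 5.94 CPM in TDP-43 brains, against 3.02, 2.91 and 2.86 CPM in control brains (log2 fold change 1.12 ± 0.13, edgeR adjusted p = 5.36e-05). CycB had 5.42, 2.47 and 3.75 CPM in TDP-43 brains, against 0.829, 0.368 and 0.892 CPM in control brains (log2 fold change 2.47 ± 0.40, edgeR adjusted p = 0.000556), and Orc1, of the replication origin complex, had 1.91, 1.3 and 1.82 CPM in TDP-43 brains, against 0.497, 0.502 and 0.714 CPM in control brains (log2 fold change 1.54 ± 0.28, edgeR adjusted p = 0.00107). TDP-43 replicate 1 had the highest level of its group in all 3 genes. When genes under 5 CPM were left out of the test, 3 members of the list rose.

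Insulin signalling, which links feeding to growth, had 9 rises and 6 falls among 33 genes, with a median of 0.14, and with replicate 1 alone 7 rose and 6 fell. The translation kinase gene S6k had 156, 159 and 168 CPM in TDP-43 brains, against 118, 113 and 115 CPM in control brains (log2 fold change 0.48 ± 0.05, edgeR adjusted p = 1.58e-05). Charybdis, chrb, which restrains the TOR kinase, had 359, 399 and 379 CPM in TDP-43 brains, against 642, 561 and 599 CPM in control brains (log2 fold change -0.66 ± 0.06, edgeR adjusted p = 1.04e-05). The insulin receptor gene InR rose (1.04 ± 0.07, edgeR adjusted p = 1.02e-06). Ilp3, an insulin-like peptide gene, fell to 2.82, 2.54 and 1.82 CPM in TDP-43 brains, against 14.9, 14 and 12.1 CPM in control brains (log2 fold change -2.51 ± 0.21, edgeR adjusted p = 4.78e-06). All these changes were seen in each library, as the rule for naming a gene required. Of 24 nuclear receptor and ecdysone response genes 3 rose and 4 fell, with Eip71CD, an ecdysone-induced reductase gene, at 38.3, 38.3 and 47.8 CPM in TDP-43 brains, against 101, 85.2 and 96.3 CPM in control brains (log2 fold change -1.19 ± 0.14, edgeR adjusted p = 0.000101). Without TDP-43 replicate 3 the falls in that list numbered 2, and with replicate 1 alone 1 rose and 2 fell.

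Amino acid and one-carbon metabolism had 8 rises and 7 falls among 29 genes. Proline dehydrogenase, slgA (X, 21374002 to 21385159), had 529, 490.4 and 465 CPM in TDP-43 brains, against 788, 733 and 715 CPM in control brains (log2 fold change -0.59 ± 0.05, edgeR adjusted p = 5.48e-06). Ahcy, which clears S-adenosylhomocysteine after methylation, had 51.4, 53.7 and 59.7 CPM in TDP-43 brains, against 34.2, 28.2 and 30.3 CPM in control brains (log2 fold change 0.83 ± 0.11, edgeR adjusted p = 0.00018), and the mitochondrial folate gene Nmdmc had 21.8, 18.3 and 17.3 CPM in TDP-43 brains, against 9.71, 10.1 and 8.77 CPM in control brains (log2 fold change 1.01 ± 0.15, edgeR adjusted p = 0.00036). Without TDP-43 replicate 3 the rises numbered 5, and without control replicate 1 the falls numbered 4, while with replicate 1 alone 5 rose and 4 fell. Of 23 metabolite transporters 7 rose and 7 fell. Genderblind, gb, a glial glutamate exchanger, had 49.96, 42.4 and 42.1 CPM in TDP-43 brains, against 21.9, 21.3 and 19.9 CPM in control brains (log2 fold change 1.09 ± 0.08, edgeR adjusted p = 8.11e-07), while the excitatory amino acid transporter gene Eaat2 (-0.44 ± 0.04, edgeR adjusted p = 9.88e-06) and the glucose transporter gene Glut1 (-0.32 ± 0.04, edgeR adjusted p = 0.0001) fell. The transporter gene CG1139 was near 0 in controls, with 6.88, 5.94 and 7.04 CPM in TDP-43 brains, against 0.0332, 0.234 and 0.178 CPM in control brains (log2 fold change 5.43 ± 0.39, edgeR adjusted p = 9.77e-07). Without TDP-43 replicate 3 the rises of this list numbered 4, and with replicate 1 alone 3 rose and 6 fell.

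Metal handling had 7 rises and 3 falls among 27 genes, and 5 rises and 1 fall with replicate 1 alone. Besides the fall of Tsf1, the zinc transporter gene Zip88E had 7.72, 8.51 and 7.93 CPM in TDP-43 brains, against 4.11, 3.58 and 3.65 CPM in control brains (log2 fold change 1.09 ± 0.11, edgeR adjusted p = 1.86e-05) and Tsf3 had 2.54, 3.84 and 4.32 CPM in TDP-43 brains, against 0.862, 0.77 and 1.38 CPM in control brains (log2 fold change 1.82 ± 0.31, edgeR adjusted p = 0.000703). Of 20 genes of mitochondrial quality control 0 rose and 6 fell, all by little, with the mitofusin gene Marf at 253, 253 and 252 CPM in TDP-43 brains, against 293, 289 and 301 CPM in control brains (log2 fold change -0.22 ± 0.04, edgeR adjusted p = 0.000525). With replicate 1 alone 1 rose and 1 fell in that list, and 1 rose without TDP-43 replicate 1 or control replicate 1. Of 34 genes of Rab, ESCRT and retromer trafficking 6 rose and 6 fell, with Rab35 (0.40 ± 0.04, edgeR adjusted p = 4.31e-05) up and Rab14 (-0.34 ± 0.06, edgeR adjusted p = 0.000798) down, and with replicate 1 alone 7 rose and 2 fell. Sphingolipid and sterol genes had 2 rises and 1 fall among 20, with lace, the first enzyme of sphingolipid synthesis, at 73.1, 73.7 and 69.4 CPM in TDP-43 brains, against 50.03, 51.7 and 51 CPM in control brains (log2 fold change 0.50 ± 0.04, edgeR adjusted p = 5.83e-06). With replicate 1 alone 1 rose and 1 fell there. Only 1 rose without TDP-43 replicate 2, TDP-43 replicate 3, control replicate 1 or control replicate 2, and the falls numbered 3 without control replicate 3 and 2 without TDP-43 replicate 1, control replicate 1 or control replicate 2. Of 15 peroxisome genes 0 rose and 1 fell, and 0 fell with replicate 1 alone. There 1 rose without TDP-43 replicate 1, and 2 fell without TDP-43 replicate 1 or 2.

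Of 23 heat shock genes 2 rose and 5 fell, and 2 rose and 3 fell with replicate 1 alone. The rises were the chaperone genes Hsp70Bb, with 850.0, 924 and 1048 CPM in TDP-43 brains, against 182, 161 and 117 CPM in control brains (log2 fold change 2.62 ± 0.16, edgeR adjusted p = 2.1e-06), and Hsp70Ba (3.13 ± 0.20, edgeR adjusted p = 2.64e-06). These are near-identical copies that can share reads, so their separate values are uncertain. The falls numbered 2 without TDP-43 replicate 2, control replicate 1 or control replicate 2, and 3 without TDP-43 replicate 3. Of 18 clock genes 3 rose and 6 fell, and 3 rose and 3 fell with replicate 1 alone. Of 17 genes of sex determination and dosage compensation 2 rose and 5 fell, and 1 rose and 2 fell with replicate 1 alone. The m6A reader gene Ythdc1, which acts in Sxl splicing, had 293, 269.8 and 279 CPM in TDP-43 brains, against 371, 369 and 331 CPM in control brains (log2 fold change -0.35 ± 0.06, edgeR adjusted p = 0.000497).

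**Figure D4:**
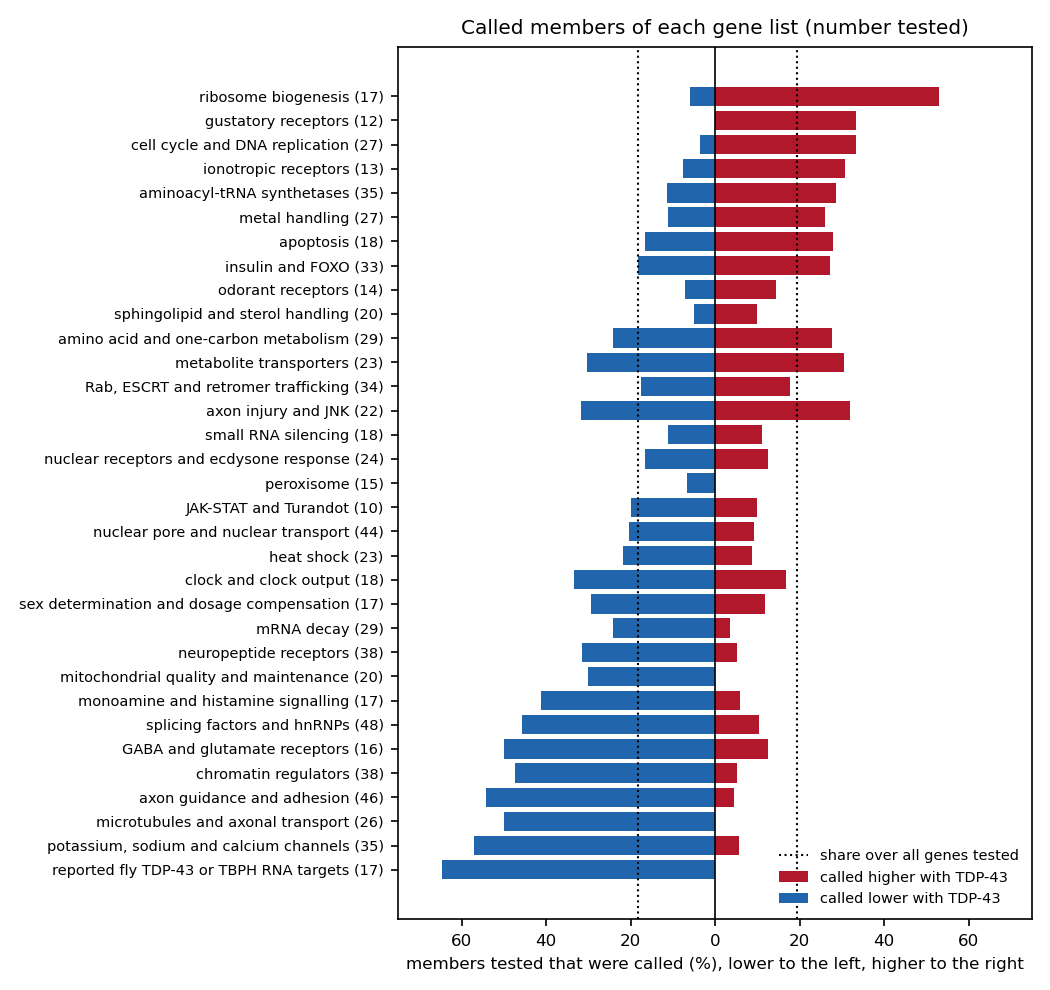
Percentage of tested members called higher (red, to the right) and called lower (blue, to the left) in each gene list, with the number tested; dotted lines mark 19.2% higher and 18.3% lower over all genes tested. Lists with 11 of 17 (genes linked to TDP-43), 20 of 35 (channels) and 25 of 46 (guidance and adhesion) falls lie at the bottom, and ribosome biogenesis, with 9 of 17 rises, at the top.

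Chemosensory receptors were mostly too scarce to test in brain: 14 of 60 odorant, 12 of 60 gustatory and 13 of 66 ionotropic receptor genes passed the filter on low counts, so these counts concern only members that could be measured in some group. Of the gustatory receptors tested, 4 rose and 0 fell, also with replicate 1 alone, and 2 fell without control replicate 3. Gr61a, of the sugar receptor family, had 2.34, 2.66 and 2.5 CPM in TDP-43 brains, against 0.862, 0.569 and 0.739 CPM in control brains (log2 fold change 1.78 ± 0.25, edgeR adjusted p = 0.000221), and the bitter receptor gene Gr32a had 2.82, 2.29 and 3.21 CPM in TDP-43 brains, against 1.03, 1.77 and 1.02 CPM in control brains (log2 fold change 1.12 ± 0.26, edgeR adjusted p = 0.00473). Gr5a, the trehalose receptor, stood at 1.05, 1.33 and 1.36 CPM in TDP-43 brains and 0.0332, 0.067 and 0.127 CPM in control brains, and its control level did not exceed 3 counts per library on average. A scarce gene can pass the filter through the group where it is higher. Over all genes tested, 26.6% were called higher and 4.84% lower at 1 to 10 CPM. Under 1 CPM these shares were 25.4% and 2.04%. Of the odorant receptors tested, 2 rose and 1 fell, and 1 rose and 1 fell with replicate 1 alone or without TDP-43 replicate 3. The fall was that of Or63a, with 13.9, 14.2 and 13 CPM in TDP-43 brains, against 26, 28.4 and 21.5 CPM in control brains (log2 fold change -0.89 ± 0.09, edgeR adjusted p = 1.98e-05). Of the ionotropic receptors tested, 4 rose and 1 fell, and 2 rose and 0 fell with replicate 1 alone. The rises numbered 2 without TDP-43 replicate 1, TDP-43 replicate 3 or control replicate 1.

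Some of the genes with large changes lay side by side. There were 24 runs of 3 or more tested neighbours that were all called in 1 direction by more than 2-fold, 23 of them up. Of all genes tested, 9.39% were called more than 2-fold higher and 1.21% more than 2-fold lower. How many such runs these shares alone would give was not tested. A run of 5 lay on 3R from 12219881 to 12236904, in which CG12256 had 64.6, 58.3 and 80.6 CPM in TDP-43 brains, against 9.25, 9.91 and 11.4 CPM in control brains (log2 fold change 2.73 ± 0.19, edgeR adjusted p = 4.92e-06). A run of 4 on 2L from 13089803 to 13109468 ended at Ttc30, a gene of cilium transport, with 24.2, 25 and 59.7 CPM in TDP-43 brains, against 0.63, 1.14 and 2.01 CPM in control brains (log2 fold change 4.82 ± 0.53, edgeR adjusted p = 0.000147). The other 3 genes of that run are long non-coding RNAs. Outside the runs, Fs(2)Ket (2L, 20734609 to 20750941) and Ns4 (2L, 20752476 to 20754655) rose close to each other. Further rises among the 8 with the smallest adjusted p lie on the same arm at 20426199 to 20456978. A run of 3 rises lies there at 20865215 to 20871565. The part of genetic background near these genes in their changes was not tested.

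The same contrast was available in 6 other libraries, where both groups carried a hairpin against Atx2 in place of mCherry and no library is shared. There 2413 of 10738 genes were called (22.5%), 1294 higher (12.1%) and 1119 lower (10.4%). Of the 4035 genes called with the mCherry hairpin, 3762 (93.2%) had the same sign with the Atx2 hairpin, 1915 (47.5%) were called in the same direction and 5 in the opposite direction. Sizes were smaller with the Atx2 hairpin: genes called higher had a median change of 0.96 with the mCherry hairpin and 0.59 with the Atx2 hairpin, and genes called lower had -0.29 and -0.16. These genes were chosen by their change with the mCherry hairpin, so the medians of the other pair are given as a description only.

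The difference of the TDP-43 change between hairpins was called for 46 genes (0.428%) by edgeR. An unadjusted p under 0.05 was given to 1636 genes, and DESeq2 called 426. The number rested on single control libraries, with 18 calls without control replicate 1, 15 without control replicate 2 and 68 without control replicate 3. Most genes described above had no called difference. For mnb the change was 1.42 ± 0.04 with the mCherry hairpin and 1.20 ± 0.04, edgeR adjusted p = 2.54e-09 with the Atx2 hairpin. For hep it was 0.88 ± 0.04 and 0.88 ± 0.04, edgeR adjusted p = 4.98e-08, and for Irk2 -0.91 ± 0.05 and -0.64 ± 0.05, edgeR adjusted p = 4.37e-06. Among splicing factors B52 changed more with the mCherry hairpin, where the difference was -0.37 ± 0.06, edgeR adjusted p = 0.0215. Saf-B likewise had a difference of -0.42 ± 0.07, edgeR adjusted p = 0.0189.

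**Figure D5:**
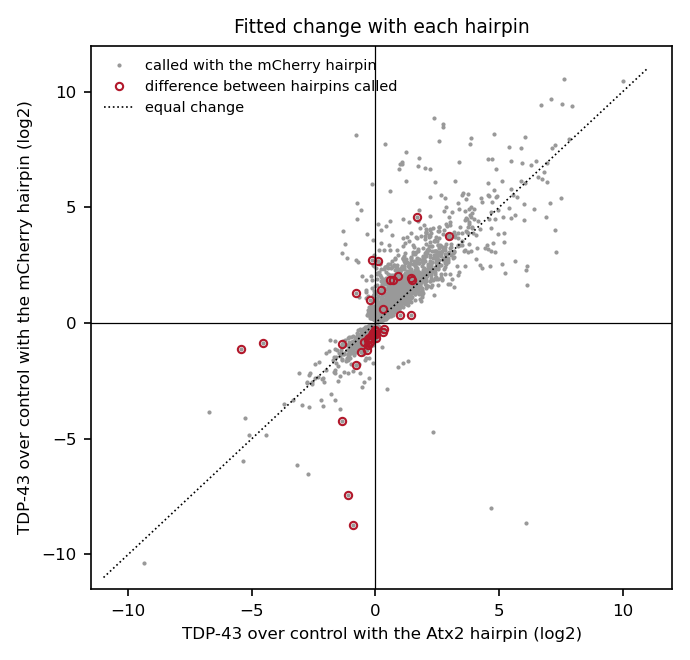
Fitted log2 change, TDP-43 over control, with the mCherry hairpin (vertical axis) against that with the Atx2 hairpin (horizontal axis) for the 4035 genes called with the mCherry hairpin; red rings mark 41 of them with a called difference between hairpins. Most points share a sign on both axes (93.2%).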

How the data were processed

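RNA was read from polyA libraries made with a stranded kit (paired reads of 150 bases), per the labels' protocols. The authors deposited raw counts per gene, whole numbers without normalisation. Trim Galore, STAR 2.7.3a, SAMtools, DESeq2 and the build dm6 are named, per the submitters' processing notes. The counting tool, strand setting and handling of shared reads are not given in the sources used here, so values of overlapping genes and of near-identical copies are uncertain. Of 17562 symbols 17490 were placed on dm6 coordinates through the annotation, 643 of them by an older symbol, and 0 columns of counts lacked a label.

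Genes were filtered with filterByExpr, which left 10738 and removed 6824, scaled by TMM, and tested in R 4.3.3 with edgeR 4.0.16 (robust quasi-likelihood F-test) in one model of 4 group means over 12 libraries with 8 residual degrees of freedom. CPM were computed from the deposited counts. Alternatives were other scaling, filters and tools (DESeq2 1.42.0), a fold threshold, a replicate block and left-out libraries. The steps were tested on simulated data. P-values measure the spread between libraries labelled as biological replicates.

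Members, lists and tests were chosen with earlier results of these data known. Genes could be named if called without overlap between groups: the 8 smallest adjusted p per direction at 20 CPM or more, the 8 largest CPM differences per direction, up to 4 called members per list, members of the 6 longest runs, and a few checks given whether called or not. Not every such gene is printed. For 12 list symbols the table held no matching gene.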

Additional observations from a re-analysis of the deposited data

Results flagged for a closer look

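For 6 of the genes described, the change with TDP-43 differed between the mCherry hairpin and the Atx2 hairpin by the interaction test in edgeR. Differences are the log2 change with the mCherry hairpin minus that with the Atx2 hairpin. The germline silencing gene piwi had opposite calls in the 2 pairs. Its change was 1.31 ± 0.21 with the mCherry hairpin and -0.77 ± 0.21, edgeR adjusted p = 0.022 with the Atx2 hairpin, a difference of 2.09 ± 0.30, edgeR adjusted p = 0.0137. With the Atx2 hairpin its level was 1.27 ± 0.00966 CPM in TDP-43 brains and 2.17 ± 0.262 CPM in control brains (SD, n = 3 each). These are levels of a rare transcript that overlaps SCAR on the other strand, and the strand setting of the counting is not known.

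The peptidase gene Nepl5 fell in both pairs, with changes of -1.81 ± 0.09 with the mCherry hairpin and -0.79 ± 0.09, edgeR adjusted p = 5.49e-05 with the Atx2 hairpin, a difference of -1.02 ± 0.12, edgeR adjusted p = 0.00419. The iron carrier gene Tsf1 fell with the mCherry hairpin (-0.66 ± 0.09) and was not called with the Atx2 hairpin (0.02 ± 0.08, edgeR adjusted p = 0.872), a difference of -0.69 ± 0.12, edgeR adjusted p = 0.0327. The splicing factor gene B52 had -0.69 ± 0.04 and -0.32 ± 0.04, edgeR adjusted p = 0.000207 in the same order, a difference of -0.37 ± 0.06, edgeR adjusted p = 0.0215. For Saf-B the changes were -0.72 ± 0.05 and -0.30 ± 0.05, edgeR adjusted p = 0.000611, a difference of -0.42 ± 0.07, edgeR adjusted p = 0.0189. The repair gene spn-B rose in both pairs, with changes of 3.75 ± 0.11 and 2.97 ± 0.11, edgeR adjusted p = 4.85e-09, a difference of 0.78 ± 0.14, edgeR adjusted p = 0.0432.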

How the results depend on the processing

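The 4035 calls became 4105 with the size factors of DESeq2, 3861 without a low-count filter, 3089 at 5 CPM or more in 3 libraries, 4331 with DESeq2 itself and 2853 when the 6 libraries were fitted alone. Leaving out 1 library gave 3205 to 4261 calls, 1597 to 2117 higher and 1600 to 2144 lower. Tested against a fold of 1.5, 758 genes were called, 629 higher and 129 lower, since small changes no longer count. With replicate 1 as the only TDP-43 library there were 2352 calls, 1155 higher and 1197 lower, from fewer samples. At 5 CPM or more, 350 genes rose and 76 fell more than 2-fold, from fewer genes tested. The replicate numbers do not pair the samples by the labels, and deviations of same-numbered libraries correlated at 0.0514, -0.101 and 0.34. With the replicate number as a block 4258 genes were called, and the block raised the count for the Atx2 pair from 2413 to 2540. The difference between hairpins was called for 40 genes with DESeq2's size factors, 138 with the block and 426 by DESeq2 itself; the cause was not tested. Of 110 genes followed through the settings, 106 were called. InR and Ilp3 were not among those followed. Each of the 106 kept its direction under every setting it was tested in (8 were not tested at 5 CPM or more). Against a fold of 1.5, 66 lost the call. Obp44a lost it with replicate 1 alone, and elav gained one with the block and without control replicate 1. The named genes were chosen largely for being called without overlap in these same libraries. A kept direction was therefore to be expected and is no separate support. Sxl, not called, had a change of -0.02 that turned to 0.016 at 5 CPM or more and to 0.017 with replicate 1 alone. A level of 3 counts corresponds to 0.0645 to 0.104 CPM, below which no fold is given, and counts of low genes limit what can be called.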
